A study of Homo sapiens with 12 samples.

Results

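Adhesion molecules that bind leukocytes were followed in RNA-seq counts of the human bladder cancer cell line HT1376. The 9 members, ICAM1, ICAM2, ICAM3, ICAM4, ICAM5, VCAM1, CD58, ALCAM and F11R, were the rows of the count table whose gene name was one of these symbols, 9 of 60666 genes. HT1376 CT, a CRISPR control line whose labels call it wild type, and HT1376 FOXP3 KO, in which exon 2 of FOXP3 was targeted with CRISPR/Cas9, were each grown without IFNγ or with 100 ng/mL IFNγ for 48 hours. Each of the 4 groups held 3 libraries, numbered 11, 12 and 13 in the labels. Each line was a single-cell clone, so a difference between the lines and a difference between these clones cannot be told apart. The sources do not say whether the 3 libraries of a group came from separate cultures, so p-values measure the spread between these libraries, which may be technical.

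The ICAM proteins are immunoglobulin-family ligands of leukocyte integrins. ICAM1 is bound by LFA-1 and Mac-1, and on epithelial and tumor cells it helps T cells to attach. Its transcription is known to be induced by IFNγ through JAK-STAT signalling and by TNF through NF-κB. VCAM1 is bound by the integrin VLA-4, CD58 (LFA-3) by CD2 on T cells, and ALCAM (CD166) by CD6. F11R (JAM-A) is a tight junction protein of epithelia that also binds LFA-1.

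The libraries held 4490684 to 39270042 counts. A count of 0 allows up to 3 counts, which is 0.0764 CPM in the library with the most counts and 0.668 CPM in that with the fewest. Such limits, like all counting intervals here, cover counting error alone. FOXP3 itself had at most 3 counts in any library and 0 in 8 of 12, so it could not check the line labels. Of the markers of HT1376's own cell type, all 8 urothelial and epithelial genes had counts in each group, with summed levels of 3050 to 4618 CPM over the 12 libraries. UPK2 had at most 2 counts in any HT1376 CT library with IFNγ. Without IFNγ, 3 of the 8 were lower in HT1376 FOXP3 KO by edgeR, against 18.2% of all genes tested, and 1 higher, against 14.0%. EPCAM (log2 fold change -1.92, SE 0.15), GATA3 (-0.68, SE 0.11) and CDH1 (-0.65, SE 0.12) were lower and KRT7 (0.95, SE 0.18) higher. The 6 leukocyte markers summed to 0.627 to 3.4 CPM, with LYZ at 0 in 3 of the 4 groups, and the 6 endothelial markers to at most 9.62 CPM, with CDH5 and CLDN5 at 0 in HT1376 CT with IFNγ and PECAM1 at 0 in HT1376 FOXP3 KO. The 5 fibroblast markers, each detected in all 4 groups, summed to 45.4 to 62.9 CPM in HT1376 CT, 24.5 to 33.9 CPM with IFNγ, 473 to 704 CPM in HT1376 FOXP3 KO and 443 to 638 CPM with IFNγ. COL1A2, DCN, LUM and PDGFRB were higher and COL1A1 lower in HT1376 FOXP3 KO, so each difference between the lines given here moved together with these markers, and their part in it was not tested. In bulk samples, fewer cells of a type and less RNA per cell cannot be told apart.

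The promoters of 3 members are shown because ICAM1 and the adjacent ICAM4 rose with IFNγ in HT1376 CT, whereas VCAM1, which other cells induce with ICAM1, had no counts. The sequences are the 250 bases before the start site in RefSeq (GRCh38.p14), all on the plus strand, and run 5′ to 3′. Capitals mark matches to 2 motifs, GAS-like (TTCNNNGAA, the form bound by STAT dimers) and κB-like (GGNNNTTCC, a form bound by NF-κB), searched on both strands.
ICAM1, chr19:10270870-10271119: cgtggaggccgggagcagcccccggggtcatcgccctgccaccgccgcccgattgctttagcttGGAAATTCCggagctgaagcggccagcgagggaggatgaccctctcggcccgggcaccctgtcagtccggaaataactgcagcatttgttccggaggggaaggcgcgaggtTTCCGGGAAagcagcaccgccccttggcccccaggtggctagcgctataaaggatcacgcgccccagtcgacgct
ICAM4, chr19:10286705-10286954: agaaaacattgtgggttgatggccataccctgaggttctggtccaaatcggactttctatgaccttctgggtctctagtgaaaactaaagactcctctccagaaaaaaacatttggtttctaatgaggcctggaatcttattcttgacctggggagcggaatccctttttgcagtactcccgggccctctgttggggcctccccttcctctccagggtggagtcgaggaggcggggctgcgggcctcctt
VCAM1, chr1:100719492-100719741: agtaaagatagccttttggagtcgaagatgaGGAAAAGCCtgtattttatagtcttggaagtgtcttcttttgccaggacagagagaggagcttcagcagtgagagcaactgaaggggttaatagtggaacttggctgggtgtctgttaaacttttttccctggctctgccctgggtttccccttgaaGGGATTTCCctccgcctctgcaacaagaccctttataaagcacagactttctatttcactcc

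Promoter windows were at hand for 7 members, not for ICAM2 and F11R. Of these 7, ICAM1 was the 1 member whose window held a GAS-like match, TTCCGGGAA at -75 to -67 from the start site. Its window also held the κB-like match GGAAATTCC at -186 to -178. The VCAM1 window held 2 κB-like matches, at -219 to -211 and -62 to -54, and no GAS-like match. The ICAM4 window held neither motif. Of 35116 RefSeq promoter windows of the same length, 6.57% held a GAS-like and 17.1% a κB-like match. Besides these motifs, 3 others were searched. The IRF-like motif, GAAA repeated after 2 bases of any kind (3.02% of windows), had 1 match in VCAM1, and the forkhead core TAAACA (11% of windows) had none in the windows of the 7 members that the table held. TATAAA (10.7% of windows) matched at -30 to -25 in ICAM1, and 3 times in VCAM1 with overlapping and reverse-strand matches counted. The CD58 window held 1 κB-like match, and the windows of ALCAM, ICAM5 and ICAM3 held none of the 5 motifs. A match describes the letters only.

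ICAM1 (ENSG00000090339, chr19:10271093-10286615, plus strand of GRCh38) rose with IFNγ in both lines and reached a higher level in HT1376 CT. Its CPM, counts scaled to the library size after TMM normalization, were 5.14, 13.4 and 12.3 in HT1376 CT replicates 11, 12 and 13 and 415, 710 and 758 with IFNγ. The HT1376 FOXP3 KO libraries were at 4.73, 6.09 and 6.17 CPM, and with IFNγ at 44.8, 71.4 and 55 CPM. The groups without and with IFNγ did not overlap in either line, and each HT1376 CT library with IFNγ stood above each HT1376 FOXP3 KO library with IFNγ. The group means were 10.3 ± 4.48, 628 ± 186, 5.66 ± 0.807 and 57.1 ± 13.4 CPM (SD, n = 3), in the order HT1376 CT, HT1376 CT with IFNγ, HT1376 FOXP3 KO and HT1376 FOXP3 KO with IFNγ. The raw counts behind these values ran from 68 to 469 without IFNγ and from 668 to 13561 with it.

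**Figure D1:**
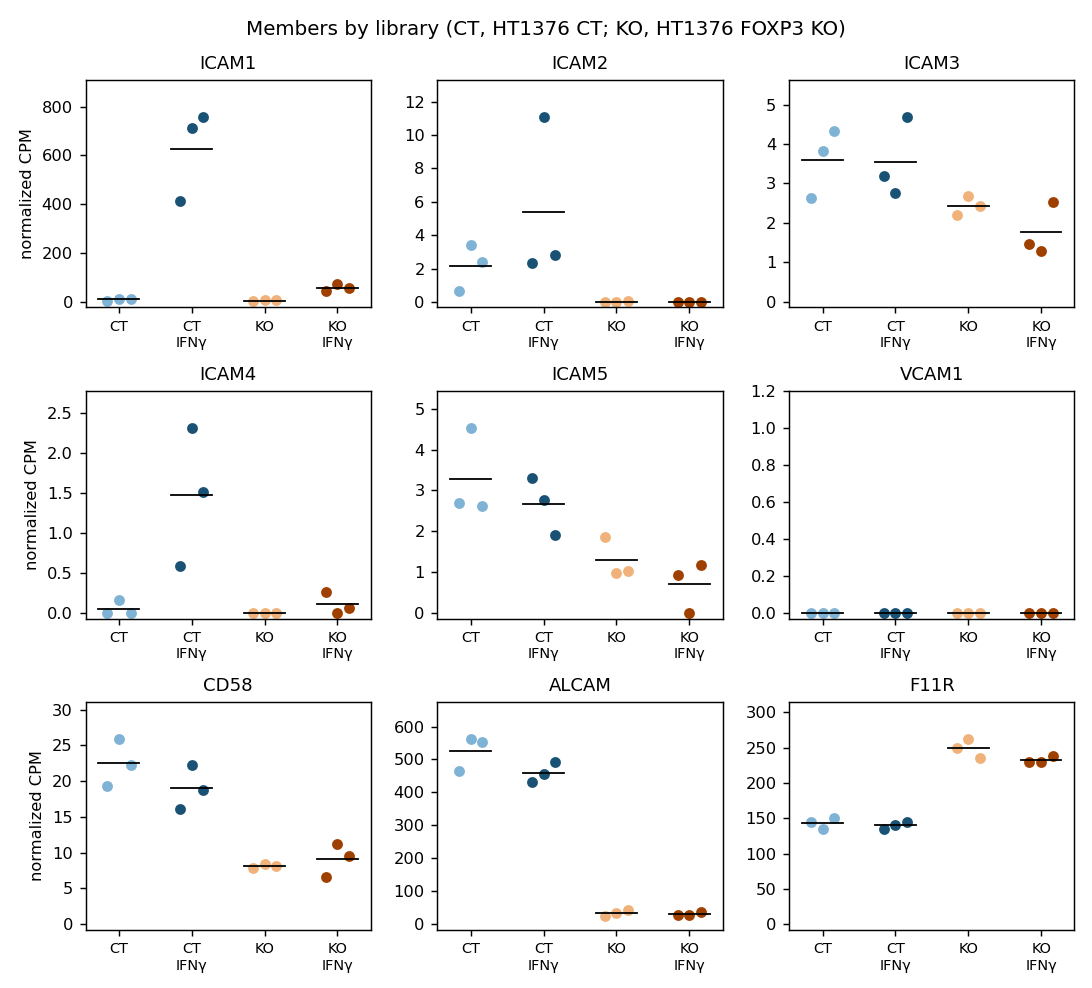
TMM-normalized CPM (linear y axis, a scale of its own in each panel) of the 9 members in the 12 libraries; points are libraries in the order 11, 12, 13 and lines are group means. ICAM1 stands at 415 to 758 CPM in HT1376 CT with IFNγ and at 44.8 to 71.4 CPM in HT1376 FOXP3 KO with IFNγ, ICAM2 and ALCAM are lower and F11R is higher in both groups of HT1376 FOXP3 KO, and VCAM1 is at 0 throughout.

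With IFNγ, ICAM1 was 61.9-fold higher in HT1376 CT (log2 fold change 5.95, SE 0.36, 95% CI 5.17 to 6.73, adjusted p = 8.7e-07, edgeR's quasi-likelihood test with Benjamini-Hochberg adjustment over all genes tested). The rise in HT1376 FOXP3 KO was 10.3-fold (log2 fold change 3.37, SE 0.21, 95% CI 2.89 to 3.84, edgeR adjusted p = 3.0e-05). By the size of its log2 fold change, ICAM1 was at rank 87 from the highest of 24416 genes tested in HT1376 CT and at rank 175 of 24131 in HT1376 FOXP3 KO. The effect itself differed between the lines. The interaction of line and IFNγ, fitted on all 12 libraries, was -2.59 on the log2 scale (SE 0.42, 95% CI -3.48 to -1.70, edgeR adjusted p = 0.0199), a 6.02-fold smaller rise in HT1376 FOXP3 KO. Its adjusted p passed 0.05 when any of 8 single libraries was left out, namely replicates 11, 12 or 13 of HT1376 FOXP3 KO, replicates 11 or 13 of HT1376 FOXP3 KO with IFNγ, replicate 13 of HT1376 CT, and replicates 12 or 13 of HT1376 CT with IFNγ. Over the 12 such fits the difference stayed between -2.77 and -2.23 (edgeR adjusted p = 0.00958 to 0.105). The call was also lost when genes needed at least 1 CPM in 3 libraries (edgeR adjusted p = 0.0677). With the replicate number as a block within each line it was kept, at -2.67 (SE 0.14, edgeR adjusted p = 6.2e-78). Adding the bias-adjusted deviance to that block also kept it, at -2.67 (SE 0.19, edgeR adjusted p = 2.7e-09).

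Between the lines, ICAM1 was 10.7-fold lower in HT1376 FOXP3 KO under IFNγ (log2 fold change -3.42, SE 0.25, edgeR adjusted p = 2.4e-06). Without IFNγ the difference was -0.86 on the log2 scale (SE 0.33, 95% CI -1.58 to -0.14) and did not pass the threshold (edgeR adjusted p = 0.0679). The untreated libraries overlapped, since HT1376 CT replicate 11 (5.14 CPM) lay within the range of HT1376 FOXP3 KO. The untreated difference passed the threshold with the replicate number as a block, at -0.75 (edgeR adjusted p = 0.0111), and without HT1376 CT replicate 11, at -1.14 (edgeR adjusted p = 0.00509). It also passed with no filter on low counts, at -0.87 (edgeR adjusted p = 0.00384).

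Of the 9 members, 8 could be tested for the IFNγ effect in HT1376 CT, where 2 rose, ICAM1 and ICAM4, and 0 fell by edgeR, against 3.53% of all genes tested that rose and 1.82% that fell. With the replicate block, 4 were called, 3 higher and 1 lower, against 8.67% and 9.88% of all genes. Only 6 members could be tested in HT1376 FOXP3 KO, where 1, ICAM1, rose, against 0.978% of all genes, and 0 fell, against 0.00414%. The others could not be tested there because ICAM2, ICAM4 and VCAM1 had fewer than 10 counts. In the interaction, 1 of 8 members was called, with a smaller rise in HT1376 FOXP3 KO, against 0.108% of all genes, and 0 had a larger one, against 0.00360%. At each of these counts of 0, the number was also 0 at an unadjusted p under 0.05 and by DESeq2.

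**Figure D2:**
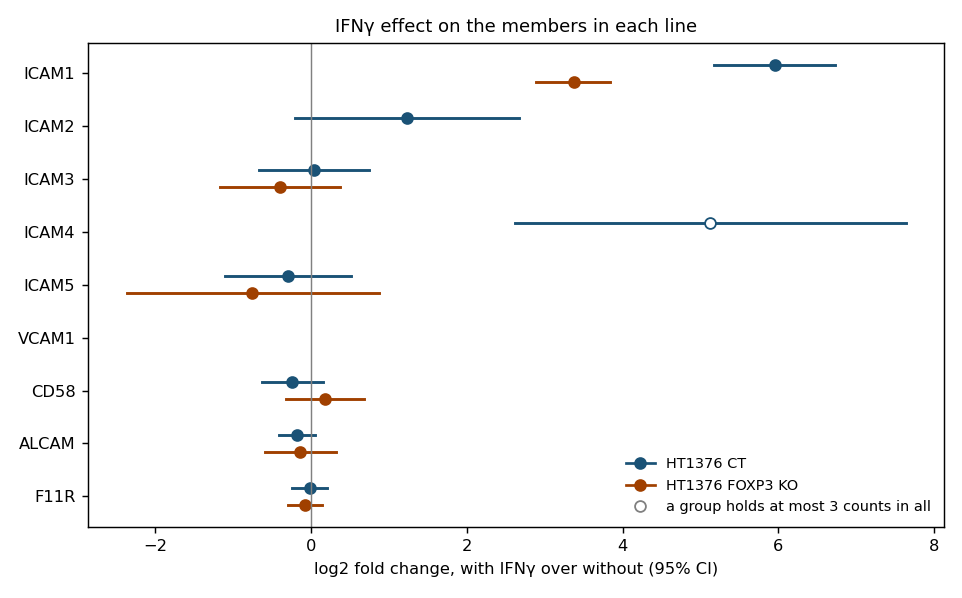
Log2 fold change of each member with IFNγ over without (x axis; points, edgeR estimates; bars, 95% CI) in the 2 lines. ICAM1 lies at 5.95 in HT1376 CT and 3.37 in HT1376 FOXP3 KO with intervals that do not overlap, ICAM4 at 5.12 rests on a group with 2 counts (open point), and the intervals of the other members drawn include 0; members with fewer than 10 counts are not drawn.

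Scaled to gene length, as CPM per kb of merged exons, ICAM1 made up a larger share of the 5 ICAM genes with IFNγ. Its share was 50.3% ± 4.9 in HT1376 CT (SD, n = 3; 45 to 54.6%) and 97.5% ± 0.669 with IFNγ (96.8 to 98.2%). For HT1376 FOXP3 KO the share was 57.4% ± 4.62 (52.2 to 60.9%) and 94.6% ± 2.82 with IFNγ (92.7 to 97.8%). By merged exons, the shares without and with IFNγ did not overlap in either line, and those of the lines overlapped at each treatment. The untreated shares, and whether they overlap between the lines, depend on the length used. ICAM2 has 3243 bases of merged exons and 1334 in its longest transcript.

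ICAM4 (ENSG00000105371, chr19:10286955-10288522), the Landsteiner-Wiener blood group antigen of red cells and an integrin ligand, starts 339 bases after the end of ICAM1 on the same strand. It had 0, 2 and 0 counts in the 3 HT1376 CT libraries and 6, 10 and 27 with IFNγ. There were 0 counts in each HT1376 FOXP3 KO library, and 4, 0 and 2 with IFNγ. These counts are few, and in HT1376 CT the groups did not overlap. Over the group, ICAM4 was 44.8-fold higher in HT1376 CT with IFNγ, with a 95% counting interval of 11.7 to 382 (edgeR log2 fold change 5.12, SE 1.14, adjusted p = 0.0228). The call was lost when HT1376 CT replicate 11 or 13, or replicate 12 or 13 with IFNγ, was left out (edgeR adjusted p up to 0.119), and with 1 library left out the fitted value ran from 4.16, without HT1376 CT replicate 13, to 7.64, without HT1376 CT replicate 12, which held both untreated counts. In HT1376 FOXP3 KO, ICAM4 had too few counts for a test of IFNγ, and the libraries without and with IFNγ overlapped at 0. The 6 counts with IFNγ were 1.88-fold the floor of 3 counts over the untreated group. That value leaves out the counting error of the 6, so it is no lower limit and shows no rise. Under IFNγ it was lower in HT1376 FOXP3 KO by 3.50 on the log2 scale (log2 fold change -3.50, SE 0.94, edgeR adjusted p = 0.0163), a call lost without replicate 13 of either group (adjusted p up to 0.0724), and -4.66 without HT1376 FOXP3 KO replicate 11 with IFNγ. The interaction was not called (95% CI -5.94 to 3.93 on the log2 scale).

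The share of ICAM4 in the counts of the adjacent pair was compared between groups by counting intervals, without a test. ICAM4 counts were 0.205% of the ICAM1 and ICAM4 counts together in HT1376 CT with IFNγ (95% Wilson interval 0.152 to 0.276%) and 0.197% in HT1376 FOXP3 KO with IFNγ (0.0905 to 0.43%). Without IFNγ the share was 0.275% in HT1376 CT (0.0755 to 0.997%) and 0% in HT1376 FOXP3 KO, with an upper limit of 1.33%. The 4 intervals overlapped, and the untreated groups, with 2 and 0 ICAM4 counts, were too small to show whether the share differed. Whether the ICAM4 counts came from ICAM1 transcripts that extend past its end was not tested. The antisense gene ICAM4-AS1 covers 815 bases of ICAM1 and all 1568 bases of ICAM4, and the strand setting of the counting is not given in the sources used here, so ICAM4 and ICAM4-AS1 counts are uncertain. ICAM4-AS1 had 78, 21, 36 and 48 counts in HT1376 CT, HT1376 CT with IFNγ, HT1376 FOXP3 KO and HT1376 FOXP3 KO with IFNγ, and was not called with IFNγ in either line.

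ICAM2 (ENSG00000108622, chr17:64002594-64020634), a ligand of LFA-1 known mainly from endothelium and platelets, was nearly absent from HT1376 FOXP3 KO. HT1376 CT replicates 11, 12 and 13 had 11, 43 and 92 counts, or 0.642, 3.42 and 2.42 CPM. With IFNγ they had 24, 48 and 50 counts, or 2.33, 11.1 and 2.79 CPM. Among the 6 libraries of HT1376 FOXP3 KO there was 1 count in all, in an untreated library. ICAM2 was therefore lower in each library of HT1376 FOXP3 KO than in each of HT1376 CT. Without IFNγ, 1 count against 146 gave a 112-fold lower level with a 95% counting interval of 19.7 to 4435 (edgeR adjusted p = 0.000657). Under IFNγ, 0 counts against 122 gave a level at least 68.9-fold lower (edgeR adjusted p = 0.000675). In HT1376 CT the IFNγ effect was 1.23 on the log2 scale (SE 0.66, 95% CI -0.21 to 2.67, edgeR adjusted p = 0.373), with overlapping libraries, and 0.28 without HT1376 CT replicate 12 with IFNγ (edgeR adjusted p = 0.862). The replicate block called it, at 1.15 (edgeR adjusted p = 0.00475), as did the fit with no filter on low counts, at 1.22 (edgeR adjusted p = 0.0311), and the block with the bias-adjusted deviance did not, at 0.98 (edgeR adjusted p = 0.0704). PRR29, which overlaps ICAM2 on the other strand, had at most 4 counts in any library.

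ICAM3 (ENSG00000076662, chr19:10333776-10339661), which is expressed on resting leukocytes, and ICAM5 (ENSG00000105376, chr19:10289952-10296778), known from neurons as telencephalin, were low in each group. ICAM3 lay between 2.63 and 4.69 CPM in the libraries of HT1376 CT without and with IFNγ and between 1.28 and 2.69 CPM in those of HT1376 FOXP3 KO. Its IFNγ effect was 0.04 (SE 0.32) in HT1376 CT and -0.40 (SE 0.34) in HT1376 FOXP3 KO on the log2 scale, neither called. The difference between the lines was -0.57 without IFNγ (SE 0.30, edgeR adjusted p = 0.178) and -0.96 under IFNγ (SE 0.39, edgeR adjusted p = 0.0906). Under IFNγ the libraries of the lines did not overlap, and 2 of 8 alternatives called the difference, the bias-adjusted deviance with the replicate block (edgeR adjusted p = 0.028) and all 12 libraries in 1 fit. An antisense lncRNA with 551 counts in all overlaps ICAM3, which makes its counts uncertain.

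ICAM5 had 46, 57 and 100 counts in HT1376 CT, 34, 12 and 34 with IFNγ, 43, 11 and 18 in HT1376 FOXP3 KO and 14, 0 and 36 with IFNγ. As CPM, its means in that order were 3.28 ± 1.08, 2.66 ± 0.706, 1.29 ± 0.485 and 0.702 ± 0.618 (SD, n = 3). Without IFNγ it was 2.43-fold lower in HT1376 FOXP3 KO (log2 fold change -1.28, SE 0.38, edgeR adjusted p = 0.0265), and the libraries did not overlap. That call was lost without HT1376 FOXP3 KO replicate 12 or 13 or HT1376 CT replicate 12 (adjusted p up to 0.103) and with all 12 libraries in 1 fit (edgeR adjusted p = 0.0877). Under IFNγ the difference was -1.70 (SE 0.69, edgeR adjusted p = 0.0901), and -1.83 with the replicate block, which called it (edgeR adjusted p = 0.0378), as did 3 other alternatives. With bias-adjusted deviance added to the block it was -1.40 and not called (edgeR adjusted p = 0.0716). The IFNγ effect was not called in HT1376 CT (log2 fold change -0.29, SE 0.37) or in HT1376 FOXP3 KO (-0.75, SE 0.72).

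VCAM1 (ENSG00000162692, chr1:100719742-100739045) had 0 counts in all 12 libraries. Over each group of 3 libraries, a count of 0 allows up to 0.0443 CPM in HT1376 CT, 0.0922 CPM with IFNγ, 0.058 CPM in HT1376 FOXP3 KO and 0.0544 CPM with IFNγ. VCAM1 was thus not detectable at this depth, and no effect on it could be tested.

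CD58 (ENSG00000116815, chr1:116514534-116571039), the CD2 ligand, differed between the lines but was not called with IFNγ. It was at 19.3, 25.9 and 22.3 CPM in HT1376 CT and at 16.1, 22.2 and 18.7 CPM with IFNγ. The HT1376 FOXP3 KO libraries had 7.92, 8.42 and 8.13 CPM, and 6.57, 11.2 and 9.56 CPM with IFNγ. Each library of HT1376 CT stood above each library of HT1376 FOXP3 KO. The level in HT1376 FOXP3 KO was 2.74-fold lower without IFNγ (log2 fold change -1.46, SE 0.17, edgeR adjusted p = 6.5e-05) and 2.01-fold lower under IFNγ (-1.01, SE 0.24, edgeR adjusted p = 0.00808). The IFNγ effect was -0.24 (95% CI -0.63 to 0.15) in HT1376 CT and 0.18 (95% CI -0.32 to 0.68) in HT1376 FOXP3 KO on the log2 scale.

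ALCAM (ENSG00000170017, chr3:105366909-105576900), the CD6 ligand that also binds itself between neighbouring cells, was the most abundant member per kb in HT1376 CT and was much lower in HT1376 FOXP3 KO. It was at 465, 562 and 554 CPM in HT1376 CT and at 432, 455 and 492 CPM with IFNγ. The levels in HT1376 FOXP3 KO were 25.8, 32.7 and 44.1 CPM, and 26.5, 27.5 and 37.7 CPM with IFNγ. The ranges of the lines were far apart at each treatment, with the lowest HT1376 CT library at 432 CPM and the highest HT1376 FOXP3 KO library at 44.1 CPM. ALCAM was 15.3-fold lower without IFNγ (log2 fold change -3.94, SE 0.19, edgeR adjusted p = 1.6e-07) and 14.5-fold lower under IFNγ (-3.86, SE 0.16, edgeR adjusted p = 5.8e-08). Its interaction was 0.04 on the log2 scale (95% CI -0.48 to 0.57). The IFNγ effect in HT1376 CT was -0.18 (95% CI -0.41 to 0.05, edgeR adjusted p = 0.431). The replicate block called it at -0.17 (edgeR adjusted p = 0.0307), and the block with the bias-adjusted deviance did not (edgeR adjusted p = 0.0562). Its effect in HT1376 FOXP3 KO was -0.14 (95% CI -0.59 to 0.32).

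F11R (ENSG00000158769, chr1:160995211-161021343) was the 1 member higher in HT1376 FOXP3 KO. It was at 145, 135 and 150 CPM in HT1376 CT and at 135, 141 and 144 CPM with IFNγ. It stood at 249, 262 and 235 CPM in HT1376 FOXP3 KO and at 230, 229 and 238 CPM with IFNγ. The libraries of the lines did not overlap, and those without and with IFNγ overlapped in each line. F11R was 1.74-fold higher without IFNγ (log2 fold change 0.80, SE 0.10, edgeR adjusted p = 0.000162) and 1.71-fold higher under IFNγ (0.77, SE 0.11, edgeR adjusted p = 0.000263). Its IFNγ effect was -0.01 (95% CI -0.24 to 0.21) in HT1376 CT and -0.08 (95% CI -0.29 to 0.14) in HT1376 FOXP3 KO.

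Between the untreated lines, 7 members could be tested. Of them, 4 were lower in HT1376 FOXP3 KO (ICAM2, ICAM5, CD58 and ALCAM), against 18.2% of all genes tested, and 1 higher (F11R), against 14.0%. Under IFNγ, 8 could be tested. Of these, 5 were lower (ICAM1, ICAM2, ICAM4, CD58 and ALCAM), against 15.7% of all genes, and 1 higher (F11R), against 13.2%. The comparisons of the lines share libraries with the comparisons of IFNγ, so they are not separate evidence.

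**Figure D3:**
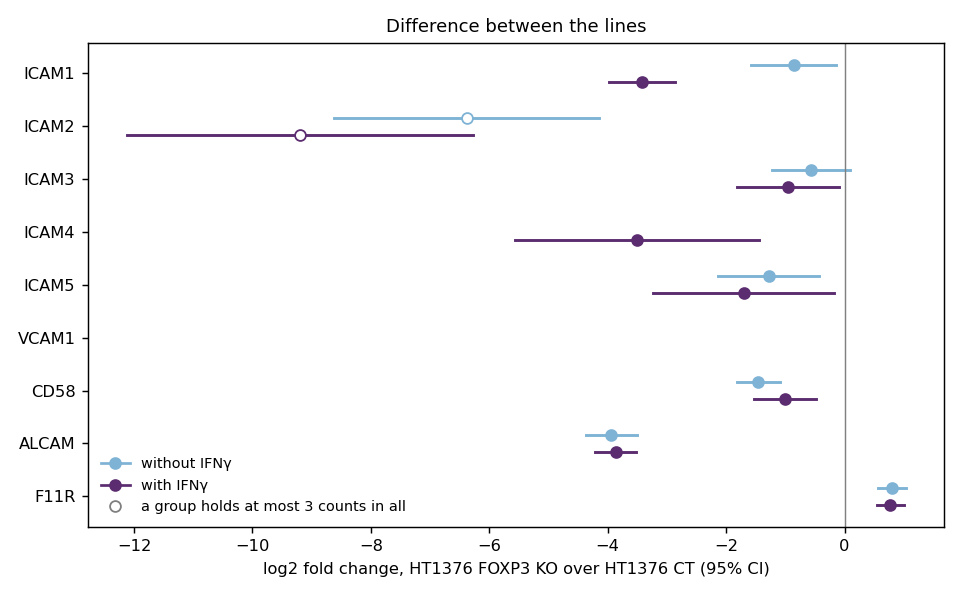
Log2 fold change of each member in HT1376 FOXP3 KO over HT1376 CT (x axis; points, edgeR estimates; bars, 95% CI), without and with IFNγ. ALCAM lies near -3.9 at both treatments, ICAM1 at -0.86 without and -3.42 with IFNγ, and F11R at 0.80 and 0.77; open points mark ICAM2, whose value depends on the prior count because a group held 0 or 1 count.

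The order of the members by level per length differed between the groups. In HT1376 CT, ALCAM led with 73.4 ± 7.57 CPM per kb (SD, n = 3), followed by F11R (28.3 ± 1.57), CD58 (12.6 ± 1.85) and ICAM1 (2.98 ± 1.3). With IFNγ, ICAM1 led with 182 ± 53.9 CPM per kb, ahead of ALCAM (64 ± 4.21), F11R (27.7 ± 0.909) and CD58 (10.6 ± 1.7). The leading 4 did not overlap with their neighbours in that order. F11R led in HT1376 FOXP3 KO with 49.1 ± 2.7 CPM per kb, and ALCAM (4.76 ± 1.29) and CD58 (4.57 ± 0.142) overlapped. ICAM1 came next with 1.64 ± 0.234. With IFNγ, F11R (45.9 ± 0.997) stayed ahead of ICAM1 (16.6 ± 3.9), and CD58 (5.11 ± 1.32) and ALCAM (4.26 ± 0.865) overlapped again. The low members ICAM3, ICAM5, ICAM2 and ICAM4 were at 1.67 CPM per kb or less in each group. In HT1376 CT each of ICAM1, ICAM3 and ICAM5 overlapped with the next in that order (ICAM1, ICAM3, ICAM5, ICAM2). Scaled by the longest transcript instead of merged exons, ICAM2 came ahead of ICAM3 and ICAM5 in HT1376 CT.

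Within 100 kb of ICAM1, 14 annotated genes, the 4 ICAM genes of that region among them, had at least 10 counts over the 12 libraries. Of the other 10, 9 could be tested in HT1376 CT and 1 rose, against 3.53% of all genes. It was TYK2, a JAK-family kinase gene whose midpoint lies 94.5 kb from the ICAM1 start (log2 fold change 0.58, SE 0.12, edgeR adjusted p = 0.0185). Of 8 tested in HT1376 FOXP3 KO, 0 were called by edgeR, against 0.978% of all genes that rose and 0.00414% that fell. The number was also 0 at an unadjusted p under 0.05 and by DESeq2. TYK2 there had a log2 fold change of 0.12 (SE 0.11). Upstream of ICAM1, MRPL4, whose product is a mitochondrial ribosomal protein, had -0.09 (SE 0.21) in HT1376 CT, and DNMT1, the maintenance DNA methyltransferase, -0.02 (SE 0.10). The sphingosine phosphate receptor gene S1PR2 had 0.27 (SE 0.30). RAVER1, between ICAM5 and ICAM3, had -0.22 (SE 0.18).

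**Figure D4:**
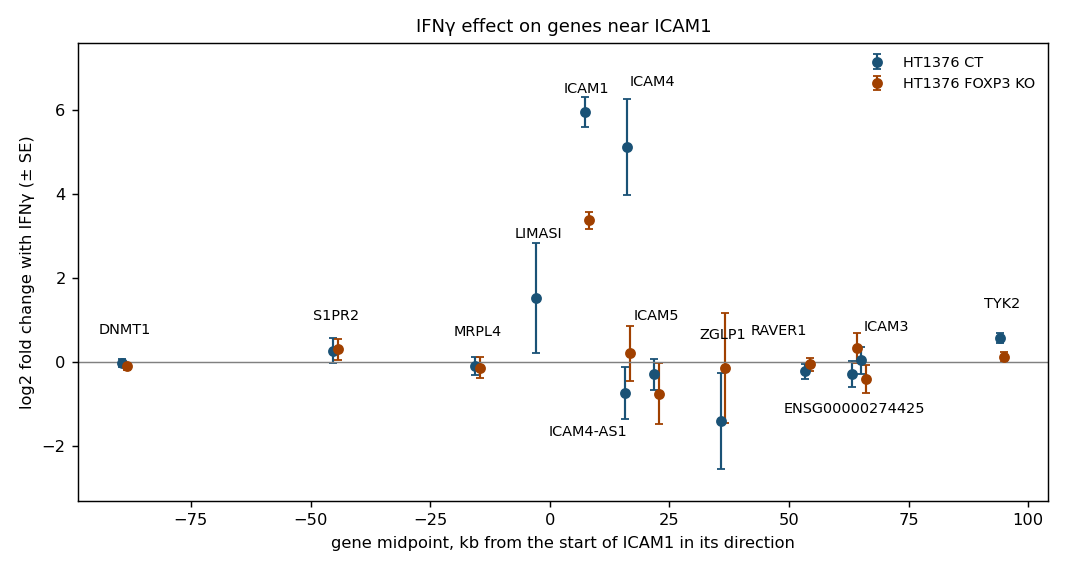
Log2 fold change with IFNγ (y axis; bars, SE) of genes within 100 kb of ICAM1 against the distance of the gene's midpoint from the ICAM1 start (x axis, kb; points of the 2 lines are set slightly apart). ICAM1 (5.95 and 3.37) and ICAM4 (5.12) stand apart from ICAM5 and ICAM3, which lie between -0.75 and 0.04, and TYK2 lies at 0.58 in HT1376 CT.

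Several genes of the pathway from the IFNγ receptor rose with IFNγ in both lines. Of the 12 genes of the IFNγ receptor and JAK-STAT list, 8 rose in HT1376 CT and 0 fell by edgeR, against 3.53% and 1.82% of all genes tested. Their median log2 fold change was 1.54 beside -0.02 for all genes tested. By the same test 6 rose in HT1376 FOXP3 KO and 0 fell, against 0.978% and 0.00414% of all genes, with a median of 0.66 beside -0.01. None fell at an unadjusted p under 0.05 or by DESeq2 in either line. IRF1, a transcription factor induced by interferons, rose by 3.83 (SE 0.11, edgeR adjusted p = 1.7e-09) in HT1376 CT and by 2.91 (SE 0.11, edgeR adjusted p = 6.9e-07) in HT1376 FOXP3 KO on the log2 scale. IRF1 was the 1 gene of this list with a called interaction (-0.93, SE 0.15, edgeR adjusted p = 0.0171), against 0.108% of all genes with a smaller rise. STAT2 rose by 2.42 (SE 0.13) in HT1376 CT and by 1.77 (SE 0.11) in HT1376 FOXP3 KO. SOCS1, a feedback inhibitor of JAK, rose by 2.02 (SE 0.26) in HT1376 CT and by 2.22 (SE 0.27) in HT1376 FOXP3 KO. Without IFNγ, 6 of the 12 were lower in HT1376 FOXP3 KO, against 18.2% of all genes. Among them were the receptor chain IFNGR2 (-1.22, SE 0.15, edgeR adjusted p = 9.9e-05), SOCS1 (-1.12, SE 0.31) and SOCS3 (-1.09, SE 0.35). Another 2, JAK1 (0.54, SE 0.11) and STAT2 (0.38, SE 0.11), were higher, against 14.0% of all genes. Under IFNγ, JAK2 (-1.70, SE 0.15, edgeR adjusted p = 1.0e-05), SOCS3 (-2.34, SE 0.47) and IFNGR2 (-1.28, SE 0.16) were among 6 lower genes, against 15.7% of all genes. There 1, JAK1 (0.56, SE 0.12), was higher, against 13.2%.

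Of the 14 genes of the NF-κB list, 3 rose with IFNγ in HT1376 CT, against 3.53% of all genes tested. They were TNF (log2 fold change 1.21, SE 0.32), NFKBIA (0.71, SE 0.17) and TNFAIP3 (0.70, SE 0.15). TNF is a ligand that activates the pathway, and NFKBIA and TNFAIP3 encode its inhibitors. None of the 14 was called in HT1376 FOXP3 KO by edgeR or DESeq2, with 3 higher at an unadjusted p under 0.05. Of all genes, edgeR called 0.978% higher and 0.00414% lower there, so a list this short could not show a lack of response. TNF had 0.98 (SE 0.46) there, NFKBIA 0.35 (SE 0.10) and TNFAIP3 0.77 (SE 0.32). For the interaction the count was 0 by edgeR, by DESeq2 and at an unadjusted p under 0.05. By edgeR, 0.108% of all genes had a smaller rise in HT1376 FOXP3 KO and 0.00360% a larger one. The list's median log2 fold change was 0.39 in HT1376 CT and 0.14 in HT1376 FOXP3 KO. Between the lines, 6 were lower and 3 higher in HT1376 FOXP3 KO without IFNγ, against 18.2% and 14.0% of all genes. Under IFNγ, 7 were lower, against 15.7%, and 0 higher, against 13.2% (1 higher at an unadjusted p under 0.05, 0 by DESeq2). The differences of TNFAIP3 were -3.44 (SE 0.27, edgeR adjusted p = 4.4e-06) and -3.34 (SE 0.24, edgeR adjusted p = 2.0e-06), and those of TNF were -2.98 (SE 0.43) and -3.16 (SE 0.32). NFKB2, a subunit precursor, had -1.61 (SE 0.20) and -1.64 (SE 0.21). ICAM1 thus stood lower under IFNγ in the line in which these genes were also lower, and their part in the difference was not tested.

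**Figure D5:**
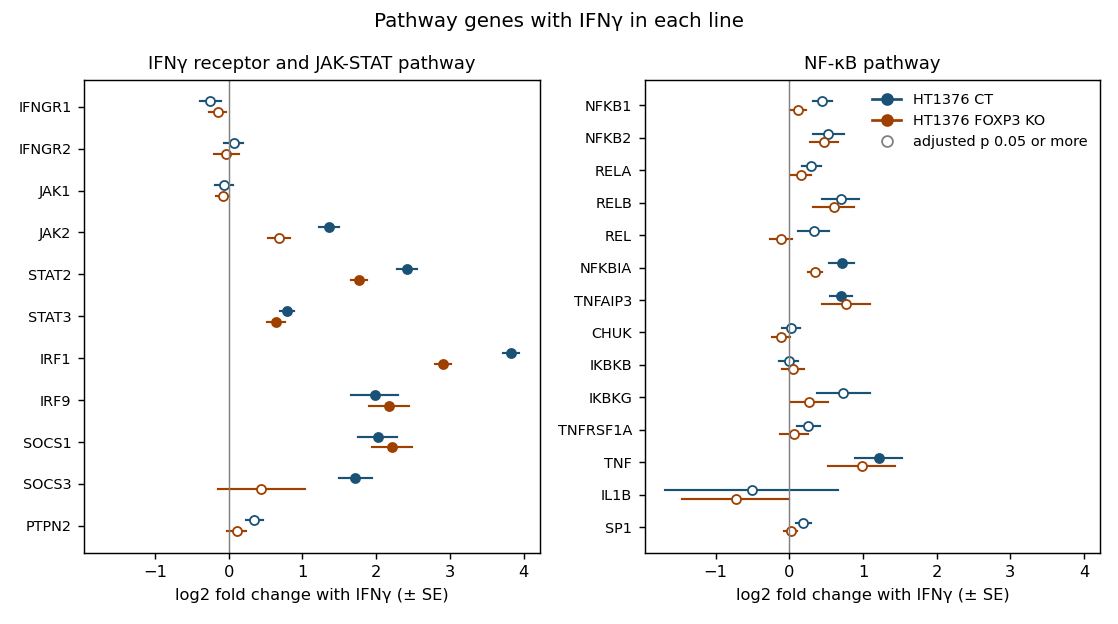
Log2 fold change with IFNγ (x axis; bars, SE) of genes of the IFNγ receptor and JAK-STAT list (left) and the NF-κB list (right) in HT1376 CT and HT1376 FOXP3 KO. Filled points have an adjusted p under 0.05: IRF1 lies at 3.83 and 2.91. No NF-κB gene is filled in HT1376 FOXP3 KO, where 0.978% of all genes tested were called higher.

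Of 20 further adhesion molecules for leukocytes, 16 could be tested with IFNγ in HT1376 CT, where 2 rose, against 3.53% of all genes, and 1 fell, against 1.82%. CD47, the ligand of SIRPα (1.33, SE 0.12, edgeR adjusted p = 3.2e-05), and PODXL, a sialomucin (log2 fold change 1.10, SE 0.20, edgeR adjusted p = 0.00742), were the 2, and GLG1, a Golgi ligand of E-selectin, fell by 0.40 (SE 0.10, edgeR adjusted p = 0.0324). The list's median was 0.10. Of 17 tested in HT1376 FOXP3 KO, 0 were called by edgeR, against 0.978% of all genes that rose and 0.00414% that fell. Of the 17, 2 were higher at an unadjusted p under 0.05 and 1 by DESeq2, and the list's median was 0.04. CD47 had 0.99 there (SE 0.20, edgeR adjusted p = 0.0614), PODXL 0.92 (SE 0.39) and GLG1 -0.08 (SE 0.12). Of 19 interactions tested in this list, 0 were called by edgeR or DESeq2 (2 higher at an unadjusted p under 0.05). By edgeR, 0.108% of all genes had a smaller rise in HT1376 FOXP3 KO and 0.00360% a larger one. Between the lines, JAM2, a relative of F11R, was higher in HT1376 FOXP3 KO by 8.03 on the log2 scale without IFNγ (SE 0.41) and by 7.22 with it (SE 0.44), and L1CAM by 6.32 without IFNγ (SE 0.32). L1CAM had no more than 3 counts in any HT1376 CT library with IFNγ, where its mean was 0.116 CPM against 51.4 CPM in HT1376 FOXP3 KO with IFNγ. CD44, the hyaluronan receptor, was lower by 2.46 without IFNγ (log2 fold change -2.46, SE 0.33) and CD47 by 1.27 (-1.27, SE 0.16).

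Of the 10 leukocyte counter-receptors of these ligands, 6 could be tested with IFNγ in HT1376 CT and 3 in HT1376 FOXP3 KO. By edgeR or DESeq2, 0 were called (1 higher in each line at an unadjusted p under 0.05). Of all genes tested, edgeR called 3.53% higher and 1.82% lower in HT1376 CT, and 0.978% and 0.00414% in HT1376 FOXP3 KO. ITGA4, the α chain of VLA-4, and CD2 were at 0 in each library, and ITGB1, the widely expressed β1 integrin chain, carried most of the list's counts, with 822 ± 107 CPM in HT1376 CT (SD, n = 3). The 13 cytoskeletal anchors and sheddases of ICAM1 include ezrin, actinin and the protease ADAM17. Of them, 0 were called with IFNγ in either line by edgeR or DESeq2, beside the same small shares of all genes. At an unadjusted p under 0.05, 1 was higher and 2 lower in HT1376 CT and 1 higher in HT1376 FOXP3 KO. Without IFNγ 8 were lower and 2 higher in HT1376 FOXP3 KO, against 18.2% and 14.0% of all genes. They were led by CAV1 (-1.71, SE 0.11, edgeR adjusted p = 1.2e-06), which forms caveolae, and ARHGEF26 (1.13, SE 0.16), an exchange factor that acts below clustered ICAM1.

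Over the 12 libraries, the 5 genes whose log2 CPM followed that of ICAM1 most closely included CTSS (r = 0.996), CALCOCO2 (0.990) and OPTN (0.985), among 15677 genes with a mean of at least 1 CPM. The libraries share 4 groups, so these r values mostly describe the group means and carry no test. CTSS, which encodes the lysosomal protease cathepsin S, was at 3.56 and 266 CPM without and with IFNγ in HT1376 CT and at 2.25 and 25.3 CPM in HT1376 FOXP3 KO. Its log2 fold changes of 6.16 and 3.54 and its interaction of -2.63 (edgeR adjusted p = 0.0281) were close in size to those of ICAM1. By Spearman's rho, 1 of the 5 genes stayed among the closest 5.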

How the data were processed

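RNA was sequenced from 12 libraries of HT1376 CT and HT1376 FOXP3 KO, grouped by the sample labels. Per the paper's methods and the labels, the authors aligned reads with STAR 2.7.11a (version per the submitters' processing notes) to GRCh38 with Ensembl 103, used Kraken to take out Mycoplasma reads, and counted reads per gene with htseq-count. The values the authors deposited are raw counts. All 12 columns were used. The strand setting is not given in the sources used here.

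Each pair of groups was fitted with edgeR 4.0.16 (glmQLFit and glmQLFTest, TMM, R 4.3.3) on genes with at least 10 counts in the 6 libraries compared, and the interaction on all 12. Genes with a Benjamini-Hochberg adjusted p under 0.05 over all genes tested were called. With 3 libraries against 3, a permutation test could not go below 0.1. Positions and lengths are from GRCh38 with GENCODE 44. Where a group held 0 counts in all, a fold is a bound from 3 counts over the group, and with 1 to 3 counts a ratio with a counting interval. Such a bound leaves out the counting error of the other group. The main fits, without a block, were also run on simulated counts of independent libraries. That simulation held no deviation shared by replicate number, so it does not cover that feature of the data.

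The members and gene lists were chosen with earlier results of these data known. Named were all members, at most 3 called genes per list, direction and comparison (largest log2 fold change, mean of at least 1 CPM), genes within 100 kb of ICAM1, FOXP3, and the 5 genes with the highest Pearson r with ICAM1 (log2 CPM, prior count 2). Marker genes at 0, UPK2, PDGFRB, ITGA4, ITGB1, CD2 and PRR29 were named outside that rule, after their values were seen. Some genes that the rule covers are not reported here.

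Libraries with the same replicate number deviated together from their group means (r over 15677 genes of 0.321 to 0.382 within HT1376 CT, 0.428 to 0.564 within HT1376 FOXP3 KO, and 0.126 to 0.338 between the lines), so the numbers were taken to pair the libraries. Between the lines, libraries with different numbers reached 0.161. Alternatives were another normalization (RLE), no filter and 1 CPM in 3 libraries, DESeq2 1.42.0, bias-adjusted deviance, the replicate block, all 12 libraries in 1 fit and each library left out. The block with the bias-adjusted deviance was added after seeing the data.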

Additional observations from a re-analysis of the deposited data

Results flagged for a closer look

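The IFNγ effect on ICAM1 differed between the lines by a test of the difference itself. The rise was smaller in HT1376 FOXP3 KO (log2 difference -2.59, SE 0.42, edgeR adjusted p = 0.0199 for the interaction over 12 libraries), with rises of 3.37 and 5.95. With the replicate block within each line the difference was -2.67 (SE 0.14, edgeR adjusted p = 6.2e-78). That p-value is too small for 12 libraries to bear out and does not measure their spread. With the bias-adjusted deviance added to that block, the difference was -2.67 (SE 0.19, edgeR adjusted p = 2.7e-09). Without a block, the edgeR adjusted p rose past 0.05 on leaving out any of 8 of the 12 libraries (up to 0.105). It also did with the filter of 1 CPM in 3 libraries (0.0677). Each of the 3 HT1376 CT libraries with IFNγ stood above each of the 3 HT1376 FOXP3 KO libraries with IFNγ. The cause was not tested.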

How the results depend on the processing

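Of the members' effects under alternatives other than leaving out a library, 277 stayed on their side of the threshold, 12 gained a call and 2 lost one. With 1 library left out, 252 stayed, 1 gained a call and 17 lost one. No member's effect that passed the threshold changed sign, and some that did not pass it did. With the numbers taken as pairs, the replicate block gave 4 members called with IFNγ in HT1376 CT (2 without it), adding ICAM2 and ALCAM, and it called ICAM1 between the untreated lines (-0.75) and ICAM5 under IFNγ. Adding the bias-adjusted deviance to the block lost the calls of ICAM2, ALCAM and ICAM5. The replicate block changed no other member's call. The untreated ICAM1 difference was also called with no filter (-0.87) and with bias-adjusted deviance added to the block (-0.77), and ran from -1.14 to -0.61 with 1 library left out. At 1 CPM in 3 libraries, ICAM4 was not tested, which left 1 member called with IFNγ in HT1376 CT, and the ICAM1 interaction lost its call (-2.59, edgeR adjusted p = 0.0677), which left 0. The cause of that loss was not tested. With 1 library left out, 1 to 2 members were called with IFNγ in HT1376 CT and 0 to 1 in the interaction, where ICAM1 ran from -2.77 to -2.23. Over all genes, 1307 were called with IFNγ in HT1376 CT, against 2248 with no filter, 4530 with the block, 4102 with that deviance added, 808 without HT1376 CT replicate 11, 839 without HT1376 CT replicate 13 and 761 without replicate 13 with IFNγ. The 237 genes called in HT1376 FOXP3 KO became 1334 with the block and 1027 with both. The 31 genes of the interaction became 294 with no filter, 151 with DESeq2, 336 with the block, 1320 with the block within each line and 867 when the bias-adjusted deviance was added, and 15 was the lowest with 1 library left out. Low counts limit ICAM2, ICAM4 and ICAM5, and 0 counts say nothing of VCAM1 below the limits given.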
